A study of Rattus norvegicus with 6 samples.

Results

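The genes described here are those of the rat major histocompatibility complex (MHC, called RT1 in the rat) and of antigen processing and presentation. Members were all rows of the deposited gene table whose name starts with RT1-, together with B2m, Tap1, Tap2, Tapbp, Psmb8, Psmb9, Psmb10, Nlrc5, Ciita and Cd74. This gave 35 of the 19088 gene rows, of which 18 are class I rows, 7 are class II rows and 10 are processing genes and regulators. The isoform table holds 79 of its 24343 transcripts for them. Poly(A) RNA was sequenced from nucleus pulposus cells, which fill the soft centre of the intervertebral disc, in primary culture from rats of the SD (Sprague Dawley) strain. The 3 rShh libraries came from cells given recombinant Sonic hedgehog, the secreted ligand of the Hedgehog pathway, at 200 ng/ml in DMSO for 48 h. The 3 Control libraries came from cells given DMSO alone for the same time. All cells were cultured in medium with 10% fetal bovine serum. The labels give neither the age nor the sex of the animals. Nothing in them says whether the 3 libraries of a condition stem from different cultures or animals, so each p-value is set against a spread between libraries that may be technical only.

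MHC class I molecules consist of a heavy chain and the light chain beta-2 microglobulin (B2m), and they show peptides from inside the cell to cytotoxic T cells. The peptides are cut by the proteasome, pumped into the endoplasmic reticulum by the transporter Tap1/Tap2 and fitted into class I with the help of tapasin (Tapbp). MHC class II molecules consist of an alpha and a beta chain, show peptides taken up from outside the cell to helper T cells, and are made mainly by professional antigen-presenting cells. Other cell types can make class II under interferon-gamma, through the coactivator Ciita, which does not bind DNA itself but joins the RFX and NF-Y factors on the X and Y boxes of class II promoters. Nlrc5 is its counterpart for class I genes.

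Because Ciita acts through short promoter boxes, 6 promoters are shown, those of 4 class II genes, 1 class I gene and the gene of the light chain. Each runs from 250 bases before to 50 bases after the annotated start, 5′ to 3′ on the gene's strand, and comes from RefSeq (build GRCr8). Capitals mark matches, on either strand, to 3 short cores: the Y box core TGATTGG, the X box core AGNAACNGA and the core of the interferon-stimulated response element (ISRE), GAAANNGAA. In RT1-A1 the capitals are the Y box core read on the opposite strand.
RT1-Da, chr20:4515165-4515464 (plus strand): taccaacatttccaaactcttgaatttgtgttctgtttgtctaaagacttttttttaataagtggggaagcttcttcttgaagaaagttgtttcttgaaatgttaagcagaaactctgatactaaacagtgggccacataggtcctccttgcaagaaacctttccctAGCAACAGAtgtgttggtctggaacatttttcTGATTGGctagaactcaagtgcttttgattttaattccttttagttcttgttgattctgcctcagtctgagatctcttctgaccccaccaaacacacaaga
RT1-Db1, chr20:4560113-4560412 (minus strand): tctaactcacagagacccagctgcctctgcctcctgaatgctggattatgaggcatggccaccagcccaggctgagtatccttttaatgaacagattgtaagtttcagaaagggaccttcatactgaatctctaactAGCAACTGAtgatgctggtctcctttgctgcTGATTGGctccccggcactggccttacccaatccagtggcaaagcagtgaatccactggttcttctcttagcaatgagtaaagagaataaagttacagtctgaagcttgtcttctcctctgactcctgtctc
RT1-Ba, chr20:4576807-4577106 (plus strand): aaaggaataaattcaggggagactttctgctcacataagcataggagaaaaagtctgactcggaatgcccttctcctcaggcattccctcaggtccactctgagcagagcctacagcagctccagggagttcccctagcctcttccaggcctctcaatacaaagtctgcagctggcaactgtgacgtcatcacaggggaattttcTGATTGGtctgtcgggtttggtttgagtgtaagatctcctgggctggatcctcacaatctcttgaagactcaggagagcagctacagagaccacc
RT1-DMa, chr20:4712286-4712585 (minus strand): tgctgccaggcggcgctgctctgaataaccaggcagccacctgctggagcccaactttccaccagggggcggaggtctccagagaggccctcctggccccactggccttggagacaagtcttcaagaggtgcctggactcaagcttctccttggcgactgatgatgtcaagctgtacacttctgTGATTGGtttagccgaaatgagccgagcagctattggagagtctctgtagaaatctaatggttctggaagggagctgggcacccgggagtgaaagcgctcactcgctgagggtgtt
RT1-A1, chr20:4906959-4907258 (plus strand): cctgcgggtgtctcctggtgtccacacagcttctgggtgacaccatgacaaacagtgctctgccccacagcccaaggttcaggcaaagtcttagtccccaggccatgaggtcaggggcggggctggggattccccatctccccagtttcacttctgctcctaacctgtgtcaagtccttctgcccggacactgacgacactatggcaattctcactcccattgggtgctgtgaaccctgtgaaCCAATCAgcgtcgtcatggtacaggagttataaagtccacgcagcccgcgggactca
B2m, chr3:129549080-129549379 (plus strand): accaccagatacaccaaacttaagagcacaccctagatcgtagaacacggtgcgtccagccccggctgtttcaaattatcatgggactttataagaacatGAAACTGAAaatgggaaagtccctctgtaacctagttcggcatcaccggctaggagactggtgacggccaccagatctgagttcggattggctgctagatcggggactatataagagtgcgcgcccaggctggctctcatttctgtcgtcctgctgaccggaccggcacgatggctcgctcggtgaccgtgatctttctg

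Of the 35 member symbols, 31 had such a window, and Ciita, Nlrc5, RT1-CE7 and RT1-DMb are named only. The cores were chosen after these promoters had been searched, so the shares describe the windows and test nothing. The Y box core stood in the gene's own orientation in 6 of 6 class II windows. It stood in 9 of 17 class I windows, 6 of them on the opposite strand, and in 1 of 8 windows of processing genes and regulators, against 7.31% of all 27457 windows. The X box core stood in 4 of 6 class II windows (RT1-Da, RT1-Db1, RT1-Bb and RT1-DOb), in 0 of 17 class I windows and in 5.23% of all windows. Counted from the start, the X box core began at position -83 and the Y box core at -51 in RT1-Da. In RT1-Db1 they began at -113 and -82, and in RT1-DOb at -114 and -85. In RT1-Bb they stood further apart, at -186 and -63. The ISRE core stood in 6 of 8 windows of processing genes and regulators (B2m, Psmb10, Tap2, Psmb8, Tap1 and Tapbp), in 3 of 17 class I windows, in 0 of 6 class II windows and in 9.5% of all. Another core, TTCNNNGAA, that of the gamma-activated site, stood in 1 class I window (RT1-M3-1) and 1 of the processing genes (Psmb8), against 8.68% of all. Some matches overlap one another, such as those to the X box and ISRE cores in Tap1. A core missing from a window says only that these letters are not in it.

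Counts summed to 65116846 to 70031072 per rShh library and to 50758195 to 55501124 per Control library, so that 3 counts, used below as the floor for a gene listed at 0, correspond to 0.0431 to 0.0465 and to 0.053 to 0.0591 CPM. CPM values below are counts scaled to library size by the TMM method. FPKM values are those deposited, scaled by the authors to depth and transcript length, and errors are SDs over 3 libraries. Whether groups of a row overlap was judged on CPM. Differences are log2 fold changes of rShh over Control from edgeR's quasi-likelihood test on counts, with Benjamini-Hochberg adjusted p-values and a threshold of 0.05. Among 14775 gene rows tested, 60.3% passed, 31.5% as higher and 28.8% as lower in rShh, and in 68.1% the groups did not overlap. The 3 chromosome Y genes Eif2s3y, Kdm5d and Ddx3 had 2235 to 7120 counts in the rShh libraries and 0 in the Control libraries. The labels do not give the sex or source of the cells of each group, so for every result below a difference in source and the ligand cannot be told apart. Of the nucleus pulposus and notochord markers, 3 of 9 tested were higher in rShh (Acan, Sox9 and Hif1a) and 5 were lower (Col2a1, Krt8, Cd24, Foxa2 and Pax1). Col2a1 had 0 to 17 counts in rShh libraries and 76 to 97 in Control libraries.

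Ciita, the regulator of class II transcription on chromosome 10 (5213350 to 5260608, minus strand, in the deposited table, whose genome build is not given in the sources used here), had 224, 258 and 200 counts in the rShh libraries and 0 in each Control library. The level in rShh was 3.41 ± 0.330 CPM, which is at least 60.9-fold higher when each Control library is set to its floor (edgeR adjusted p = 2.4e-06). All of these counts belonged to 1 protein-coding transcript of 19 exons and 5295 bases. In length-scaled terms the level was low, at 0.519 ± 0.053 FPKM in rShh. Nlrc5, the class I counterpart, had 0, 5 and 0 counts in rShh and 0, 0 and 8 in Control, too few to be tested.

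The classical class II chains came into view in the rShh libraries at low counts. Both chains of RT1-B, the molecule that corresponds to mouse I-A and human HLA-DQ, showed this. RT1-Ba, its alpha chain (chr20:4066132-4070721), had 34, 29 and 21 counts in rShh and 0 in each Control library, at least 7.52-fold higher than in Control at its floor (adjusted p = 0.000705). RT1-Bb, its beta chain (chr20:4039413-4049711), had 32, 52 and 34 counts in rShh and 0, 6 and 3 in Control. Its log2 fold change was 3.34 (SE 0.83, adjusted p = 0.00547). This value was 4.27 without Control library 2 and 2.74 without Control library 1, and the call held in each case. Both RT1-B rows were over the count filter of the test only in the rShh libraries. Neither their calls nor the stability of these calls is therefore support by itself.

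RT1-D corresponds to mouse I-E and human HLA-DR. RT1-Da, its alpha chain (chr20:4127644-4132616), had 22, 15 and 36 counts in rShh and 0 in each Control library, at least 6.58-fold higher than in Control at its floor (adjusted p = 0.00133). RT1-Db1, its beta chain (chr20:4087618-4097190), had 27, 44 and 46 counts in rShh and 8, 0 and 11 in Control. The groups did not overlap, but the log2 fold change of 2.28 passed narrowly (SE 0.84, adjusted p = 0.0385). This row was over the count filter in all 3 rShh libraries and in only 1 Control library, so it entered the test through rShh. Its call is therefore no support by itself. The call was lost when any rShh library or Control library 1 or 2 was left out (adjusted p = 0.0567 to 0.119), and with no count filter (adjusted p = 0.0811). With Control library 3 left out the log2 fold change was 2.99. The counts of RT1-Db1 in Control lay in transcripts with a retained intron. Its 6-exon protein-coding transcript had 22, 30 and 20 counts in rShh and 0 in each Control library, and so entered the test of isoforms only through rShh.

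The genes of class II assembly and peptide loading differed in level. Cd74, the invariant chain that guides class II out of the endoplasmic reticulum and blocks its groove (chr18:56071478-56080849), had 46, 20 and 55 counts in rShh and 0 in each Control library, at least 11-fold higher than in Control at its floor (adjusted p = 0.000621). RT1-DMa and RT1-DMb form the DM exchanger, which removes the remnant of the invariant chain from the groove. RT1-DMb (chr20:3945601-3952846) had 31, 18 and 14 counts in rShh and 0 in each Control library, at least 5.67-fold higher than in Control at its floor (adjusted p = 0.00167). RT1-DMa (chr20:3935529-3938915) was the only class II gene well above the floor in the Control group. It had 314, 401 and 370 counts in rShh and 198, 164 and 142 in Control, or 5.43 ± 0.486 and 3.12 ± 0.355 CPM (log2 fold change 0.80, SE 0.17, adjusted p = 0.0023). Its partner RT1-DMb therefore stayed far below it in both groups, at 0.142 ± 0.0577 against 2.62 ± 0.272 FPKM for RT1-DMa in rShh. RT1-DOb, a chain of the DO modulator of DM, had 0, 0 and 3 counts in rShh and 0 in Control, and was not tested.

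**Figure D1:**
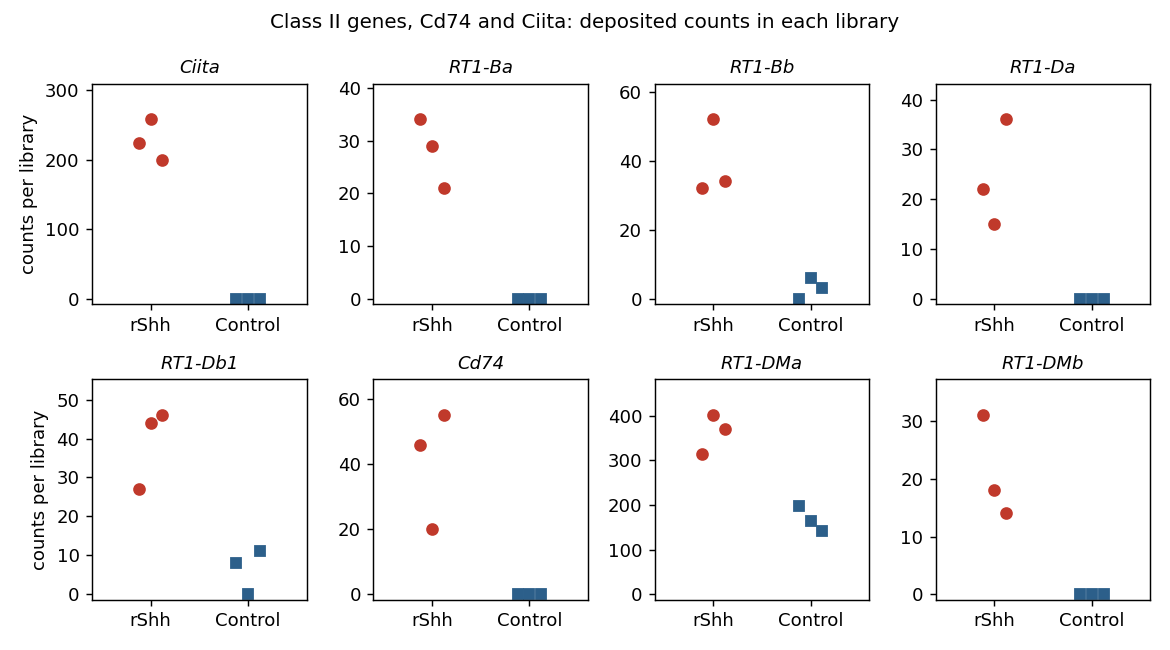
Deposited counts per library (y axis, linear, from 0) of Ciita, 4 classical class II chains, Cd74 and the DM chains, with 3 rShh libraries left and 3 Control libraries right in each panel. The groups are apart in every panel: Ciita stands at 200 to 258 counts in rShh and at 0 in Control, while RT1-DMa alone has more than 100 counts in the Control libraries, at 142 to 198.

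Together the 6 class II rows other than RT1-DMa held 146, 158 and 154 counts in the rShh libraries and 8, 6 and 14 in the Control libraries. Their summed level was 0.781 ± 0.0385 FPKM in rShh and 0.0347 ± 0.0185 FPKM in Control, so even in rShh all of them together reached a small part of the class I level given below. All 6 class II rows tested were higher in rShh, but 4 of them, like Cd74 and Ciita, were over the filter of 0.166 CPM only in the rShh libraries. Such rows could pass only by differing, and RT1-Db1 was over the filter in only 1 Control library, so this count is no support for the pattern. Of all 35 members, 5 had 0 counts in every Control library and counts in every rShh library (Ciita, Cd74, RT1-Ba, RT1-DMb and RT1-Da), against 1.52% of all 19088 gene rows. The members were chosen with earlier results of these data known, and these 5 rows were over the filter only in rShh. The comparison with all rows therefore gives no support either. In bulk RNA, a few cells with much class II RNA and many cells with little cannot be told apart.

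The tested markers of professional antigen-presenting cells did not pass. Of 18 macrophage and monocyte symbols 7 had rows, and 0 of the 5 tested passed with edgeR in either direction. At an unadjusted p under 0.05 the count was also 0. The log2 fold changes of these 5 were all above 0, at 0.16 to 1.18. Several rest on few counts, so not passing says little. The summed level of the 7 rows was 14.0 to 16.8 CPM in rShh libraries and 11.3 to 14.7 CPM in Control libraries. Most of it was Cd14, the lipopolysaccharide co-receptor, at 13.8 ± 1.17 and 11.8 ± 1.44 CPM. Csf1r, the receptor that macrophages need to survive, had 18, 6 and 17 counts in rShh and 15, 0 and 0 in Control. Itgax, an integrin of dendritic cells and macrophages, had 47, 86 and 81 counts in rShh and 39, 16 and 30 in Control, with groups apart (log2 fold change 1.02, adjusted p = 0.0785). Laptm5, a lysosomal protein of blood cells, had 4, 0 and 0 counts in rShh and 0 in Control. Irf8, a factor of myeloid cells that stands on another list below, was higher (log2 fold change 1.80). Of 7 dendritic cell symbols 4 had rows and 0 of 2 tested passed. Their summed level was 4.71 to 5.29 CPM in rShh libraries and 5.72 to 6.24 CPM in Control libraries, most of it Zbtb46. The 2 tested were Zbtb46 (log2 fold change -0.31) and Cd83 (log2 fold change 1.23, adjusted p = 0.304). Cd83 had 29, 31 and 39 counts in rShh and 4, 30 and 0 in Control, with overlapping groups. Batf3 had 0 counts in rShh and 10, 0 and 0 in Control, and Ccr7 had 0, 8 and 0 in rShh and 0 in Control. The other symbols of these lists, and the B cell list, were not analysed here. The T cell list had 4 rows, summing to 0.336 to 0.589 CPM in rShh libraries and 1.87 to 2.48 CPM in Control libraries. Most of the Control sum was Cd2, which passed as lower, with 9, 0 and 4 counts in rShh and 85, 95 and 122 in Control. Cd2 was over the filter only in Control libraries, so its call is no support by itself. Lck did not pass (log2 fold change -0.10). Cd3g had 0, 13 and 6 counts in rShh and 0, 0 and 4 in Control, and Cd3e had 0 in rShh and 0, 7 and 0 in Control. The endothelial list had 3 rows at 1.96 to 2.21 CPM in rShh libraries and 4.86 to 7.07 CPM in Control libraries. Most of it was Tek, which passed as lower. Vwf had overlapping groups and did not pass (log2 fold change 0.33), and Tie1 was not tested. The part of any such cells in the class II counts was not tested.

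Class I rows were measured at far higher levels and moved in both directions. Of the 17 tested, 6 were higher in rShh, 5 were lower and 6 did not pass. The groups did not overlap in 9 of the 17, against 68.1% of all genes tested. The count of lower rows was 3 without rShh library 1 or 2 or Control library 2 or 3. With all libraries, 64.7% were called, close to the 60.3% of all genes, and their median log2 fold change was 0.08, against 0.01 for all genes tested. RT1-S2, with 10, 0 and 3 counts in rShh and 2, 0 and 4 in Control, was not tested. These rows lie on chromosome 20, with all other RT1 genes, Tap1, Tap2, Tapbp, Psmb8 and Psmb9, between 154074 and 5476193. Class I genes are near-identical in places, and 9 of the member rows overlap another member's span on the same strand (10 pairs, such as RT1-A2 inside RT1-A1). How the counting shared reads among them is not given in the sources used here, so the value of each single row is uncertain.

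RT1-A is the classical class I region, and its pair of rows went in opposite directions. RT1-A1 (chr20:5351605-5418019) had 10.0, 9.62 and 8.87 FPKM in rShh and 6.64, 5.26 and 4.87 FPKM in Control. Its log2 fold change was 0.76 (SE 0.12, adjusted p = 0.000277). RT1-A2 (chr20:5374985-5378539), the row with the highest class I level, had 10.7, 12.2 and 13.1 FPKM in rShh and 13.5, 14.7 and 16.0 FPKM in Control. It was lower by a small margin, with a log2 fold change of -0.31 (SE 0.10, adjusted p = 0.0212). The groups did not overlap in either row. The call of RT1-A2 was lost without rShh library 1 or 2 or Control library 2 or 3 (adjusted p = 0.0536 to 0.0927). Neither of its transcripts passed in the test of isoforms (adjusted p = 0.308 and 0.414). The spans of the RT1-A1 and RT1-A2 rows overlap by 3555 bases.

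The RT1-CE rows, nonclassical class I genes of the C/E region, spread over the widest range. RT1-CE7 (chr20:4694472-4896970) had 7.32, 7.22 and 7.57 FPKM in rShh and 3.91, 1.82 and 2.31 FPKM in Control. It was higher, with a log2 fold change of 1.45 (SE 0.22, adjusted p = 0.000273), and the rShh libraries varied less among themselves (coefficient of variation 2.43%) than the Control libraries (40.9%). Over all genes tested, correlations between libraries were also lower within Control (0.992 to 0.994) than within rShh (0.996 to 0.997). The direction of this difference in spread is therefore not particular to RT1-CE7. RT1-CE10 (chr20:154074-157677) lies apart from the others, at the low end of the chromosome's coordinates, and overlaps no other member. It had 2.76, 2.76 and 3.05 FPKM in rShh and 7.38, 6.75 and 6.72 FPKM in Control, the largest decrease among class I rows (log2 fold change -1.29, SE 0.11, adjusted p = 5.32e-06). RT1-CE5 had 7.71, 7.95 and 8.29 FPKM in rShh and 7.80, 8.70 and 8.80 FPKM in Control, with overlapping groups (log2 fold change -0.09, adjusted p = 0.438). RT1-CE3 also overlapped, at 2.76 to 3.12 FPKM in rShh and 2.18 to 3.72 FPKM in Control. RT1-CE4, at 2.50 to 2.76 FPKM in rShh and 2.90 to 3.67 FPKM in Control, was lower with a log2 fold change of -0.34 (adjusted p = 0.0272). That call was lost without any 1 of the rShh libraries or Control library 2 or 3 (adjusted p = 0.0516 to 0.103), and with limma on log2 FPKM (adjusted p = 0.0524 to 0.0867). RT1-CE1 was lower as well, at 2.42, 5.13 and 2.67 CPM in rShh and 9.41, 5.25 and 6.98 CPM in Control (log2 fold change -1.08, SE 0.30, adjusted p = 0.0106). Its rShh library 2 lay just below Control library 2 in CPM, and both were at 2.11 FPKM. The RT1-CE1, RT1-CE3, RT1-CE4, RT1-CE5 and RT1-CE7 spans overlap, so their separate values may trade reads.

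The remaining class I rows belong to the RT1-M, RT1-N, RT1-S and RT1-T24 groups. RT1-M3-1 carries the name of the gene known from mouse to show formylated bacterial peptides. It had 4.19, 3.45 and 3.05 FPKM in rShh and 6.07, 5.73 and 6.04 FPKM in Control, and was lower without overlap (log2 fold change -0.74, SE 0.14, adjusted p = 0.00102). RT1-N3 had 2.78, 3.43 and 4.18 FPKM in rShh and 2.26, 2.27 and 2.37 FPKM in Control (log2 fold change 0.58, SE 0.17, adjusted p = 0.0115). It was higher without overlap, and the call was lost without rShh library 3 (adjusted p = 0.0628). RT1-T24-4 had 4.57, 3.52 and 3.68 FPKM in rShh and 1.58, 1.81 and 1.73 FPKM in Control, an increase with wide separation (log2 fold change 1.19, SE 0.17, adjusted p = 0.000148). RT1-T24-1 and RT1-T24-3 passed as higher too, with log2 fold changes of 1.11 (adjusted p = 0.0469) and 1.17 (adjusted p = 0.0419), but the groups of each overlapped. RT1-T24-1 was at 0.919 to 1.63 FPKM in rShh and 0.378 to 0.982 FPKM in Control. RT1-T24-3 was at 0.445 to 1.09 FPKM in rShh and 0.206 to 0.469 FPKM in Control. RT1-T24-1 lost the call without rShh library 1 or 2 or Control library 1 or 2, and RT1-T24-3 without rShh library 2 or 3 or Control library 1 or 2 (adjusted p = 0.0682 to 0.193 over both). Both also lost it with no count filter (adjusted p = 0.059 and 0.0511). RT1-S3, RT1-M6-1, RT1-M6-2 and RT1-N2 overlapped between groups and did not pass, with log2 fold changes of -0.37 to 0.19.

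**Figure D2:**
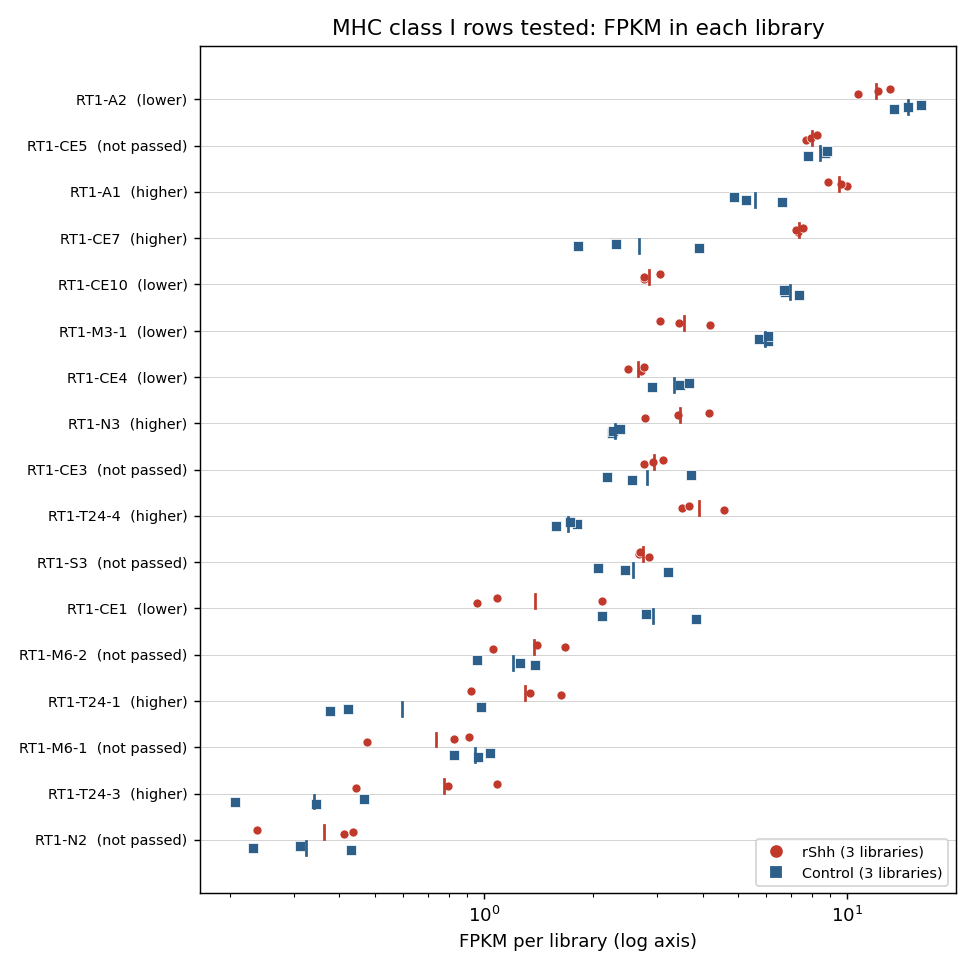
FPKM per library (x axis, log scale) of the 17 class I rows tested, ordered by mean level, with rShh libraries as circles above and Control libraries as squares below in each row, short vertical lines at the group means, and the edgeR call beside each name. RT1-CE10 and RT1-M3-1 stand lower in all 3 rShh libraries while RT1-A1, RT1-CE7 and RT1-T24-4 stand higher, and 8 of the 17 rows overlap between groups when judged on CPM.

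Summed over its 18 rows, class I was at nearly the same level in both groups. The sum was 63.6, 65.5 and 66.0 FPKM in the rShh libraries and 65.2, 60.2 and 64.9 FPKM in the Control libraries, or 65.0 ± 1.29 and 63.4 ± 2.84 FPKM, a ratio of 1.02. The groups overlapped on this scale. As CPM the sum was 159, 157 and 160 in rShh and 155, 145 and 155 in Control, a ratio of 1.04 with the groups narrowly apart. Reads traded among class I rows leave the CPM sum untouched, but reads dropped or counted repeatedly would change it. Within the FPKM sum, the share of RT1-CE7 was 11.3 ± 0.263% in rShh and 4.19 ± 1.59% in Control, and that of RT1-A1 was 14.6 ± 1.15% and 8.81 ± 1.34%. RT1-CE10 held 4.39 ± 0.200% in rShh and 11 ± 0.537% in Control, and RT1-A2 held 18.4 ± 1.49% and 23.3 ± 2.23%.

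B2m, the light chain shared by all class I molecules and encoded apart from the MHC (chr3:114087287-114093309), was higher in rShh. It had 42442, 42400 and 41240 counts in rShh and 17455, 14652 and 13687 in Control, or 632 ± 24.7 and 284 ± 21.6 CPM. The log2 fold change was 1.16 (SE 0.06, adjusted p = 1.85e-07), a 2.23-fold difference, and the lowest rShh library lay far above the highest Control library. B2m has 1 transcript in the isoform table and overlaps no other member, so sharing of reads among RT1 rows does not touch it. Per FPKM of summed class I, there were 4.69, 4.34 and 4.42 FPKM of B2m in rShh and 2.19, 2.07 and 1.89 in Control.

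**Figure D3:**
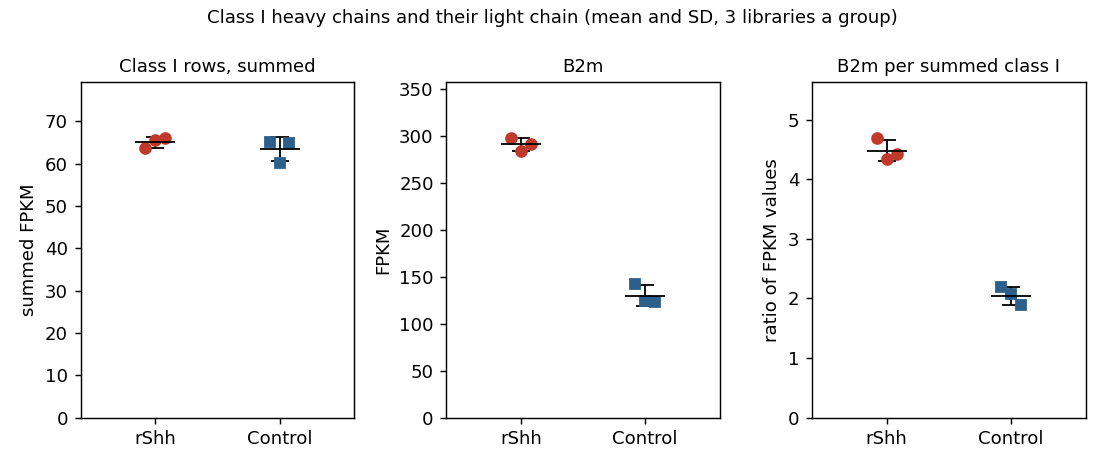
Summed FPKM of the 18 class I rows, FPKM of B2m, and their ratio (y axes, linear, from 0), with 1 point per library, the mean as a horizontal line and the SD as bars, rShh left and Control right. Summed class I overlaps between groups (65.0 ± 1.29 and 63.4 ± 2.84 FPKM), while the ratio of B2m to it was 4.48 ± 0.181 in rShh and 2.05 ± 0.151 in Control.

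At the level of transcripts, 44 of the 79 member isoforms could be tested, of which 14 were higher, 7 lower and 23 did not pass. Of the 18180 isoforms tested in all, 45.1% passed, 23.8% as higher and 21.3% as lower, and the groups did not overlap in 59.6%. Of the 14 higher, 7 had 0 counts in every Control library, and 2 of the 7 lower had 0 in every rShh library. Such transcripts entered the test only through the group where they were seen, so the members' count is not set against these shares. With limma on log2 FPKM, 7 of the 28 member isoforms that could be tested were higher. In class I, 5 isoforms were higher and 5 lower of 28 tested.

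In the deposited counts, the RT1-A1 row held different transcripts in rShh and in Control. ENSRNOT00000089306, of 9 exons, had 920, 1185 and 1133 counts in rShh and 0 in each Control library (adjusted p = 8.25e-05). ENSRNOT00000081240, of 8 exons, had 0 counts in each rShh library and 385, 314 and 167 in Control (adjusted p = 0.000699). Each made up a large part of the gene in the group where it was seen: ENSRNOT00000089306 held 52.8% of the RT1-A1 counts in rShh and ENSRNOT00000081240 held 29.4% in Control. Another, ENSRNOT00000080900, had 1186, 942 and 725 counts in rShh and 675, 611 and 643 in Control, and did not pass (adjusted p = 0.342). ENSRNOT00000078972 had 151, 0 and 0 counts in Control and 0 in each rShh library. Libraries of the same group also differed in this way in other class I genes. ENSRNOT00000041502 of RT1-T24-1 had 134, 0 and 0 counts in rShh, and ENSRNOT00000047779 of RT1-CE4 had 0, 209 and 210 in Control. How reads were assigned among such transcripts is not given in the sources used here, so these shifts are uncertain.

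RT1-CE10 had a transcript seen only in Control, but no transcript seen only in rShh. ENSRNOT00000084461 had 0 counts in each rShh library and 141, 204 and 226 in Control (adjusted p = 0.000635). The main transcript of RT1-CE10, ENSRNOT00000079494, was lower as well, with 362, 252 and 411 counts in rShh and 670, 486 and 503 in Control (adjusted p = 0.0167). In RT1-CE4, ENSRNOT00000041151 had 82, 144 and 120 counts in rShh and 377, 274 and 289 in Control (adjusted p = 0.00213), while ENSRNOT00000082497 overlapped between groups and did not pass. These 3 genes were chosen after their transcript values were seen. Over the whole isoform table, 1.64% of transcripts had 0 counts in every Control library and counts in every rShh library, and 0.407% had the reverse. RT1 alleles differ between rats, SD is an outbred stock, and the labels give no RT1 type, so a different RT1 type of the animals and the treatment cannot be told apart in these transcripts.

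**Figure D4:**
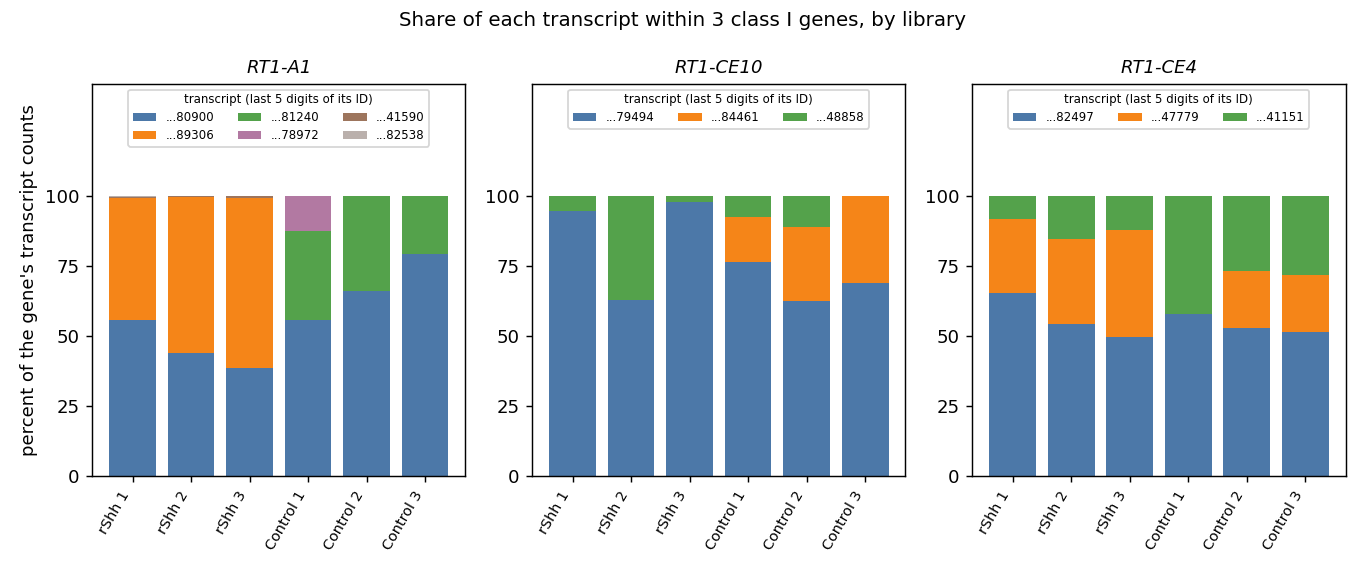
Percent of each gene's transcript counts (y axis) held by each annotated transcript of RT1-A1, RT1-CE10 and RT1-CE4, in 3 rShh libraries left and 3 Control libraries right. In RT1-A1, ENSRNOT00000089306 takes 43.3% to 60.5% in rShh libraries and 0 in Control libraries, where ENSRNOT00000081240 takes 20.6% to 33.9%.

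Of the 6 members that supply and load class I peptides, all with FPKM values above 0 in every library, 1 was higher, 2 were lower and 3 did not pass. That is 3 of 6 called, near the 60.3% of all genes. Tap1 (chr20:3979035-3989669), a subunit of the peptide transporter, had 4.58, 4.29 and 4.42 FPKM in rShh and 4.87, 4.29 and 5.57 FPKM in Control. The groups overlapped (log2 fold change -0.16, adjusted p = 0.225). Its partner Tap2 (chr20:3995544-4009587) had 1.66, 2.26 and 2.34 FPKM in rShh and 1.5, 1.17 and 1.59 FPKM in Control and was higher (log2 fold change 0.54, SE 0.19, adjusted p = 0.0284). The call of Tap2 was lost without rShh library 2 or 3 or Control library 2 (adjusted p = 0.0929 to 0.111). In the test of isoforms its only transcript, with the same counts, did not pass (adjusted p = 0.0785). Tapbp, the tapasin that bridges class I to the transporter (chr20:5468078-5476193), was lower, with 6.20, 6.83 and 6.85 FPKM in rShh and 8.99, 10.4 and 12.3 FPKM in Control (log2 fold change -0.68, SE 0.12, adjusted p = 0.000709).

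The 3 immunoproteasome subunits, which replace constitutive ones and favour peptides that fit class I, divided into 1 that was lower and 2 that did not pass. Psmb10 (chr19:37909546-37912027), the most abundant of them, was lower, with 6.19, 7.82 and 6.27 FPKM in rShh and 12.2, 14.8 and 14.6 FPKM in Control (log2 fold change -1.05, SE 0.13, adjusted p = 7.5e-05). Psmb9 (chr20:3973420-3978845) had 0.918, 0.933 and 0.827 FPKM in rShh and 0.695, 0.376 and 0.775 FPKM in Control. Its groups did not overlap, but it did not pass (log2 fold change 0.51, SE 0.34, adjusted p = 0.216). Psmb8 (chr20:3990613-3993769) overlapped between groups, at 0.773 to 1.20 FPKM in rShh and 0.911 to 1.57 FPKM in Control (adjusted p = 0.493). Per FPKM of their constitutive counterparts Psmb5, Psmb6 and Psmb7, the 3 together had 0.0404 ± 0.00511 FPKM in rShh and 0.0512 ± 0.00443 FPKM in Control. That ratio stayed small in both groups. Its groups were only narrowly apart, at 0.0361 to 0.046 in rShh libraries and 0.0467 to 0.0555 in Control libraries. Most of the immunoproteasome FPKM was Psmb10.

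Over all 35 members, 32 were tested, 16 were higher, 7 were lower and 9 did not pass, which is 71.9% called. Since 6 of the 32 were over the filter only in rShh libraries, this share is not set against the 60.3% of all genes.

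Genes around the pathway were read from lists named by role, with up to 3 genes per direction by smallest p. Each count below stands against 31.5% higher and 28.8% lower among all genes tested, and with lists this short no count is read as particular to its list. Of the class II transcription factors, 2 of 8 tested were higher and 2 lower. Irf8, an interferon-responsive factor of myeloid cells, had 10.6 ± 0.963 CPM in rShh and 3.04 ± 0.454 CPM in Control (log2 fold change 1.80, adjusted p = 5.71e-06). Creb1, which binds the X2 box, was higher with a log2 fold change of 0.54. The RFX subunits Rfxap and Rfx5, which bind the X box, were lower with log2 fold changes of -0.47 and -0.25. The 4 other tested factors, Rfxank and the NF-Y subunits Nfya, Nfyb and Nfyc, did not pass.

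In interferon-gamma signalling, 4 of the 10 tested genes described were higher and 4 lower. Jak2, a kinase of the interferon-gamma receptor, had 76.1 ± 1.39 CPM in rShh and 48.2 ± 6.72 CPM in Control (log2 fold change 0.66, adjusted p = 0.000158). Socs3, an inhibitor of cytokine receptor kinases, was higher with a log2 fold change of 1.39, and Ptpn2, a phosphatase that dampens these kinases, with 0.56. Socs1, the main inhibitor of interferon-gamma signalling, was lower, with 36, 20 and 35 counts in rShh and 59, 143 and 115 in Control (log2 fold change -2.11, SE 0.45, adjusted p = 0.0023). The receptor chain Ifngr2 and the kinase Jak1 were lower with log2 fold changes of -0.43 and -0.25. Irf1, an interferon-gamma target known to act on Ciita and class I promoters and named here after its values were seen, had 5.02 ± 0.489 CPM in rShh and 4.76 ± 1.47 CPM in Control and did not pass (adjusted p = 0.779). Ifng itself was not analysed here.

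Of 16 further genes of class I loading and peptide supply, 6 were higher and 9 lower, with a median log2 fold change of -0.19. The peptidase Tpp2 and the proteasome activator Psme4 were higher with log2 fold changes of 0.80 and 0.79, and the oxidoreductase Pdia3 of the loading complex with 0.33. The constitutive catalytic subunits Psmb6 and Psmb5 were lower with -0.56 and -0.61, and the interferon-inducible activator Psme2 with -0.71. In the class II compartment, 3 of 9 were higher and 4 lower. The cathepsins Ctsb and Ctsl and the protease Lgmn were higher with log2 fold changes of 0.53, 0.57 and 0.42. Ctsz, a carboxypeptidase, was at 10.2 ± 0.766 CPM in rShh and 44.3 ± 8.10 CPM in Control (log2 fold change -2.12, adjusted p = 6.29e-07). The reductase Ifi30 and the cathepsin Ctsh were lower with -0.50 and -0.27.

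Among MHC-like molecules and ligands of natural killer cells, 3 of 7 tested were higher, 0 lower and 4 did not pass. Procr, the endothelial protein C receptor, which has a class I-like fold, had 45.0 ± 1.16 CPM in rShh and 17.3 ± 0.267 CPM in Control (log2 fold change 1.38, adjusted p = 1.41e-07). Ulbp1, a ligand of the activating receptor NKG2D, had 325, 332 and 356 counts in rShh and 0 in each Control library, at least 90.7-fold higher than in Control at its floor. It passed the filter only through rShh, so the count of 3 gives no support by itself. Mr1, which shows vitamin B metabolites, passed with overlapping groups (log2 fold change 0.91, adjusted p = 0.0396). Of 6 costimulatory and checkpoint genes tested, 2 were higher and 2 lower. Cd80, a ligand of CD28 and CTLA4, had 9.64 ± 0.986 CPM in rShh and 2.94 ± 0.620 CPM in Control (log2 fold change 1.71, adjusted p = 2.01e-05). Cd274, the PD-1 ligand PD-L1, had 234, 251 and 198 counts in rShh and 31, 15 and 0 in Control (log2 fold change 3.60, SE 0.66, adjusted p = 0.000856). The adhesion molecule Icam1 and the checkpoint molecule Cd276 were lower with log2 fold changes of -0.33 and -0.16.

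**Figure D5:**
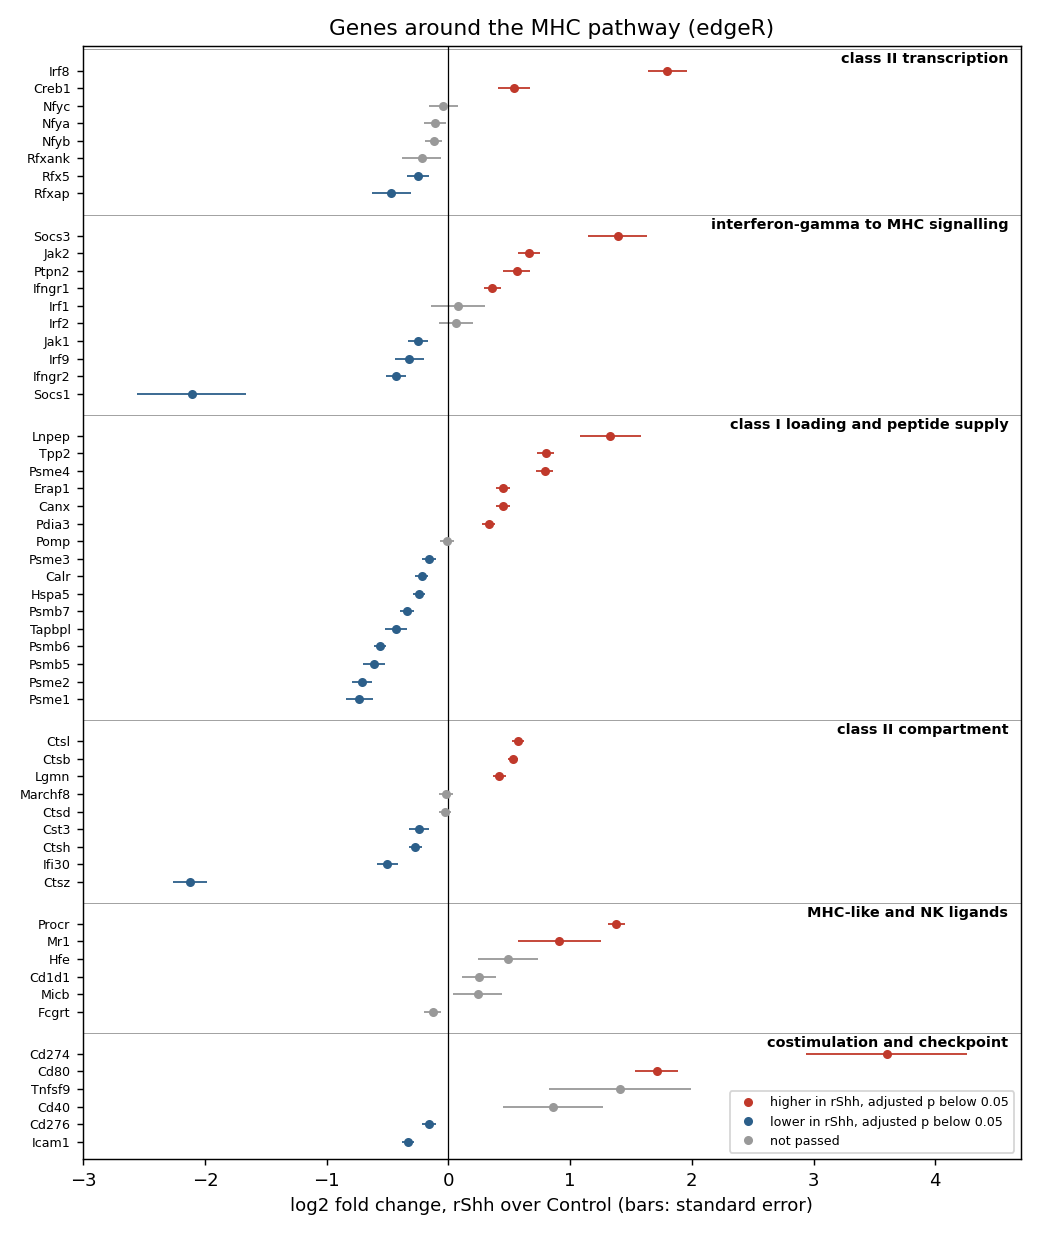
Log2 fold change of rShh over Control (x axis) with its standard error for genes around the MHC pathway, grouped by role and ordered by value. Ulbp1, which has no Control counts, is not drawn. Irf8 (1.80) and Cd274 (3.60) lie right of 0, and Socs1 (-2.11) and Ctsz (-2.12) lie left of it.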

How the data were processed

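The deposited tables hold 1 row per gene and 1 per isoform, with counts and FPKM values for 3 rShh and 3 Control libraries. The tools named, per the submitters' processing notes, are StringTie 1.3.4d, HISAT2 2.0.4 and cutadapt 1.9, together with edgeR and DESeq2. Not given in the sources used here are the genome build and the strand setting of the counting. Per the file headers, the deposited count columns are read counts per gene or transcript. FPKM values were scaled by the authors to transcript length and depth, as deposited.

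Counts were fitted over the whole table with edgeR 4.0.16 in R 4.3.3: filterByExpr with a minimum count of 10, TMM scaling, and glmQLFit and glmQLFTest on condition alone. P-values were adjusted by the Benjamini-Hochberg method over all rows tested, with a threshold of 0.05. The common biological coefficient of variation was 12.7%. Alternatives used other scalings, no filter, DESeq2 1.42.0, limma 3.58.1 on log2 FPKM, a 1.5-fold threshold, a replicate block and each library left out. The fits were tested on simulated data.

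Rows were kept apart by gene identifier. Depth per library and the floor of 3 counts stand with the results and cover counting error only. Members and gene lists were chosen with earlier results of these data known. Named genes were all class II, processing and regulator members, the 10 class I rows highest in mean FPKM with the others by range, and up to 3 genes per direction from each list by smallest p. 1 gene of the interferon-gamma list is not reported here.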

Additional observations from a re-analysis of the deposited data

How the results depend on the processing

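Across 15 or fewer alternatives per gene, 401 gene values kept direction and call, 50 lost the call and 5 changed sign. Against a 1.5-fold change, all genes gave 2167 higher and 1091 lower (4657 and 4257 without it, so 66.5% and 52.2% of calls were higher), members 9 higher and 2 lower, class I 2 and 1, and processing genes 1 lower. Calls lost there include RT1-A1, RT1-CE1, RT1-M3-1, RT1-N3, RT1-DMa and Tapbp. On log2 FPKM with limma at either pseudocount and a mean of at least 1 FPKM, 20 members could be tested, of which 7 were higher, with class II at 1 of 1 tested and processing genes at 2. Fewer genes are tested there by construction. With limma, 7 member isoforms were higher. With libraries left out, class I rows called lower ranged from 3 to 5. Signs changed for rows that had not passed: RT1-CE3 from -0.11 to 0.30 (-0.03 in another omission), RT1-S3 from -0.05 to 0.26, RT1-N2 from -0.05 to 0.39 and Psmb8 from -0.40 to 0.00 in log2 fold change. The cause was not tested for the other changes.

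Replicate numbers did not pair the samples (correlations of deviations -0.0835, -0.00715 and -0.000754, and no number was its own best match). A replicate block gave 13 members higher (RT1-T24-1, RT1-T24-3 and RT1-Db1 lost the call) and 7 lower, and 4 isoforms higher. Class II rows other than RT1-DMa rest on at most 52 counts in any library.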
